A study of Rattus norvegicus with 6 samples.

Results

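The genes described here carry or receive neuropeptide, endocannabinoid and neurotrophin signals in pain circuits. They are Penk, Pdyn, Oprm1, Cnr1, Bdnf and Ntrk2. The tissue was rat rostral ventromedial medulla (RVM), a brainstem relay that sends descending control to the spinal and trigeminal dorsal horn. The genes were set by a fixed list of Ensembl identifiers with symbols and no cut on their values, though earlier results of these data were known. Of the 7 identifiers in that list, 6 are described, out of 22976 genes in the table. Tac1, the substance P precursor gene, was not analysed here, so no tachykinin gene is covered. The deposited table gives identifiers without symbols and the reference tables at hand tie none of them to a symbol, so each name rests on the list. The comparison was of 3 libraries from rats given CFA (complete Freund's adjuvant, an inflammatory emulsion of killed mycobacteria in oil) with 3 libraries from rats given saline. Each rat received 50 µL in the temporomandibular joint on both sides, and the RVM was taken on day 3. The labels give no strain, sex or age, and do not state that replicates are different rats or whether animals were pooled. The spread behind each p-value is that between libraries, and may be technical in part or whole.

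Penk and Pdyn encode the precursors of the enkephalins and the dynorphins, opioid peptides that act mainly through the delta and mu receptors and the kappa receptor. Oprm1 encodes the mu receptor, the main target of morphine. In the rat RVM, mu agonists silence the ON cells, which promote pain, and release the OFF cells, which suppress it. Cnr1 encodes CB1, the cannabinoid receptor through which lipid messengers released by a neuron reduce transmitter release onto it. Bdnf encodes brain-derived neurotrophic factor and Ntrk2 its receptor TrkB, a pair that has been studied in rats for a part in descending facilitation of inflammatory pain.

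The libraries held 38260153, 27534174 and 32305437 fragments in CFA replicates 1, 2 and 3, and 44977905, 34440104 and 38212928 in saline replicates 1, 2 and 3, as recovered from the stepwise values of FPKM (fragments scaled by gene length and by library total). The variance between libraries of a group was 2.88 to 3.10 times counting noise over the 6 pairs, so no library was a plain copy of another. The test was limma on log2(FPKM + 1) with Benjamini-Hochberg adjustment, over the 13566 genes that averaged 1 FPKM or more. It called 2545 genes at an adjusted p under 0.05, 1530 higher and 1015 lower in CFA. Quantile scaling turned that balance to 1197 higher and 1391 lower.

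In CFA rats Pdyn fell and Bdnf and Ntrk2 rose, while Penk and Cnr1 did not pass the test and Oprm1 was too low to be tested with the others. The Bdnf call was lost in 8 of 18 alternative settings, and those of Pdyn and Ntrk2 in none of theirs. Of the 5 genes over 1 FPKM, 3 passed an adjusted p of 0.05, 2 higher and 1 lower in CFA, where 18.8% of all genes tested passed. The shares of all genes tested were 11.3% for genes called higher and 7.48% for genes called lower. The groups did not overlap in 3 of these 5 genes, against 37.7% of all genes tested. The median log2 change of the 5 genes was 0.04, and that of all genes tested was 0.01. The 6 genes spanned a wide range of levels. Penk ranked 304 and Oprm1 16479 among the 22976 genes by mean FPKM.

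**Figure D1:**
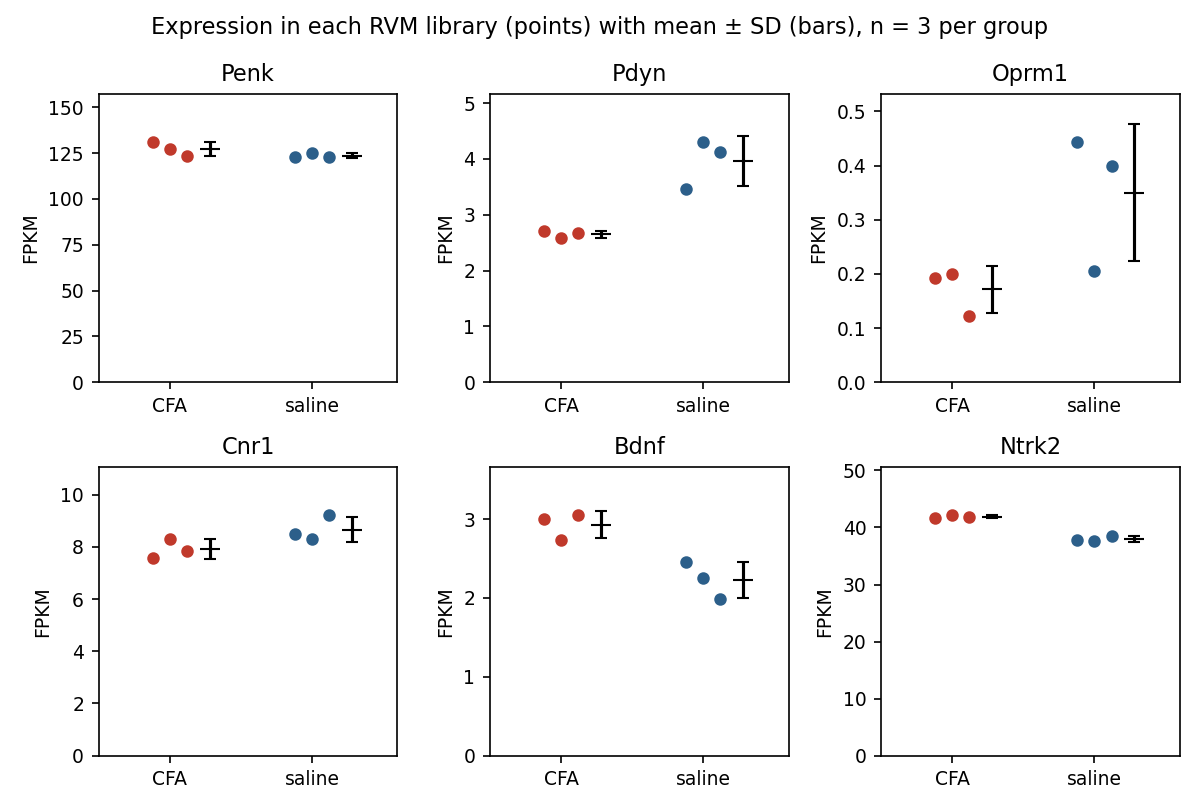
FPKM of each of the 6 genes in each library, with CFA on the left and saline on the right of each panel; points are libraries and bars are the mean ± SD over 3 libraries. Pdyn is lower, and Bdnf and Ntrk2 are higher, in every CFA library than in any saline library, and the vertical scale differs between panels.

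Penk (ENSRNOG00000008943), the enkephalin precursor gene, was the most abundant of the 6 and differed little between groups. It had 131.3, 127.2 and 123.3 FPKM in CFA replicates 1, 2 and 3, against 122.8, 125.3 and 122.7 FPKM in saline replicates 1, 2 and 3. The groups overlapped, since CFA replicate 3 lay below saline replicate 2. The log2 change was 0.04 (95% interval -0.01 to 0.10, adjusted p = 0.280, limma), which rests on 4489 to 7079 fragments per library. The interval includes 0, so the change seen could not be told from none. Of all genes tested, 73.2% had a larger change in either direction.

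Pdyn (ENSRNOG00000026036), the dynorphin precursor gene, was lower in CFA. It had 2.70, 2.58 and 2.67 FPKM in CFA replicates 1, 2 and 3, against 3.46, 4.31 and 4.12 FPKM in saline replicates 1, 2 and 3. The 3 CFA libraries lay close together and below every saline library, of which replicate 1 was the lowest. The means were 2.65 ± 0.0641 FPKM in CFA and 3.96 ± 0.444 FPKM in saline (SD, n = 3 each), and the mean fell by 33.2% in CFA. On the log2(FPKM + 1) scale the change was -0.44 (SE 0.0759, 95% interval -0.62 to -0.26, adjusted p = 0.00592, limma), and 4.91% of all genes tested had a larger change in either direction. Because Pdyn is low, that scale understates its change, which was -0.56 with a pseudocount of 0.1 FPKM. The values rest on 252, 173 and 210 fragments in CFA and 380, 362 and 384 in saline, and the variance between libraries was 0.117 times counting noise in CFA and 5.01 times in saline. The CFA libraries thus lay closer together than their fragment counts alone would give on average. In bulk tissue, fewer cells of a type and less RNA per cell cannot be told apart.

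The start region of Pdyn is shown because this gene had the largest change of the 5 genes tested. It spans chr3:137366454-137366753 of GRCr8, minus strand, in the RefSeq promoter table, which covers 250 bases before and 50 after the annotated start. Capitals mark a TATAAA motif, whose first base lies at position -13 from the start.
Pdyn: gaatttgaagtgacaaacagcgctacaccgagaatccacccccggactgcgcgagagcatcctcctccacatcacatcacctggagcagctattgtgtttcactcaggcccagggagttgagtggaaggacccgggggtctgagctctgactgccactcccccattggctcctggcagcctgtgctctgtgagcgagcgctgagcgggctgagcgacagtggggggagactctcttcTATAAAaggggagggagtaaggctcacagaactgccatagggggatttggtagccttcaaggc
TATAAA occurs on either strand in 14.2% of the 33469 regions of that length. TGACGTCA, the cyclic AMP response element (CRE), its half-site TGACG, and CACGTG, an E-box, were searched on both strands and were not in this window.

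Oprm1 (ENSRNOG00000018191), the mu receptor gene, was detected at a level near the limit of these libraries. It had 0.192, 0.201 and 0.122 FPKM in CFA replicates 1, 2 and 3, against 0.444, 0.206 and 0.399 FPKM in saline replicates 1, 2 and 3. The groups did not overlap, which held for 33.2% of the genes averaging at least 0.1 FPKM, but CFA replicate 2 and saline replicate 2 were nearly equal. In fragments there were 28, 21 and 15 in CFA and 76, 27 and 58 in saline. Per library total, the CFA fragments came to 0.477 of the saline fragments (95% exact interval 0.351 to 0.641, counting error only). The variance between the saline libraries was 6.31 times counting noise, so that interval is too narrow for a comparison of conditions. With genes of at least 0.1 FPKM tested, the log2 change of FPKM + 1 was -0.20 (SE 0.0914, 95% interval -0.42 to 0.01, adjusted p = 0.209, limma), and 13.9% of the genes in that fit passed. The change was -0.95 with a pseudocount of 0.01 FPKM (adjusted p = 0.217, limma) and -1.01 with limma's voom on fragments (adjusted p = 0.057), so its size depended on the scale and it passed in neither. Ipcef1, a protein-coding gene, overlaps Oprm1 in the RefSeq annotation of GRCr8. The labels do not say that strand was used in counting, so fragments of both genes may be mixed. The same limit holds for Pdyn, Cnr1 and Ntrk2, which overlap 1, 2 and 7 genes of that annotation, none of them protein-coding, while Penk and Bdnf overlap none.

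Cnr1 (ENSRNOG00000008223), the CB1 receptor gene, was the most abundant of the receptors for opioids and cannabinoids described here. It had 7.57, 8.32 and 7.84 FPKM in CFA replicates 1, 2 and 3, against 8.48, 8.29 and 9.22 FPKM in saline replicates 1, 2 and 3. The groups overlapped through CFA replicate 2, which exceeded saline replicate 2. The means were 7.91 ± 0.378 FPKM in CFA and 8.66 ± 0.490 FPKM in saline (SD, n = 3 each). The log2 change was -0.12 (SE 0.0535, 95% interval -0.24 to 0.01, adjusted p = 0.177, limma). With limma's voom on fragments, which number 1939 to 3230 per library, the change was -0.14 and the adjusted p was 0.0162. The call thus depended on the test. Without saline replicate 3, the highest of the saline libraries, the change was -0.08 (adjusted p = 0.414, limma).

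Bdnf (ENSRNOG00000047466), the neurotrophin gene, was higher in CFA. It had 3.00, 2.74 and 3.05 FPKM in CFA replicates 1, 2 and 3, against 2.45, 2.25 and 1.99 FPKM in saline replicates 1, 2 and 3. Every CFA library lay above every saline library, and the closest were CFA replicate 2 and saline replicate 1. The means were 2.93 ± 0.166 FPKM in CFA and 2.23 ± 0.232 FPKM in saline (SD, n = 3 each), 31.5% higher in CFA. The log2 change of FPKM + 1 was 0.29 (SE 0.0753, 95% interval 0.11 to 0.46, adjusted p = 0.0350, limma), and 9.79% of all genes tested had a larger change in either direction. This call was close to the threshold. It was lost with quantile scaling (log2 change 0.21, adjusted p = 0.0984, limma) and with cyclic loess scaling (0.25, adjusted p = 0.0537), and with no filter on low genes (0.29, adjusted p = 0.0748). It was also lost without CFA replicate 1 (adjusted p = 0.0987, limma), CFA replicate 3 (0.101), saline replicate 2 (0.0831) or saline replicate 3 (0.104), with the change between 0.23 and 0.29 in these 4 fits. With voom on fragments, 458 to 697 per library, the adjusted p was 0.000565 (limma).

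Bdnf has several first exons, each with its own promoter, and the table gives 1 value for the gene, so use of one start against another was not measured. The RefSeq table holds 6 start regions for it, all on the plus strand of chromosome 3 in GRCr8. The 2 that hold a searched motif are shown, at chr3:116620585-116620884 for the first and chr3:116637608-116637907 for the second. In the first, capitals mark TATAAA read on the other strand, at position -250, and the E-box CACGTG, at position 20. In the second, capitals mark the CRE half-site TGACG read on the other strand, at position -35.
Bdnf first: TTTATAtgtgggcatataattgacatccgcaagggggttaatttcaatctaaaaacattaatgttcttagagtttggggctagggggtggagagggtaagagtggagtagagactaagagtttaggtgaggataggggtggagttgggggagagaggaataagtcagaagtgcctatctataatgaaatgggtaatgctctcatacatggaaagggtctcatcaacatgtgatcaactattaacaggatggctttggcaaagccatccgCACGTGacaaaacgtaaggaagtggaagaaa
Bdnf second: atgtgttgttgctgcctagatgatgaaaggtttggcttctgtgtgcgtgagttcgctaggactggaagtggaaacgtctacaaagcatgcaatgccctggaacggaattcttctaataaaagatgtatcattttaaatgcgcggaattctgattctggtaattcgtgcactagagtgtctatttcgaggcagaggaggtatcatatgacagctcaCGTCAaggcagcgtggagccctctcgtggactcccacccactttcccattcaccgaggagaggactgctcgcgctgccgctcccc
Of all 33469 regions, 6.42% hold CACGTG, 21.2% hold TGACG and 1.83% hold the full TGACGTCA, which none of the 6 Bdnf regions held. The 2 Oprm1 regions held none of the 4 motifs. Penk, Cnr1 and Ntrk2 had no entry.

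Ntrk2 (ENSRNOG00000018839), the TrkB gene, rose by a small amount with little spread. It had 41.7, 42.2 and 41.9 FPKM in CFA replicates 1, 2 and 3, against 37.8, 37.6 and 38.5 FPKM in saline replicates 1, 2 and 3. The groups did not overlap, and the gap between them was wider than the range within either. The means were 41.9 ± 0.241 FPKM in CFA and 38.0 ± 0.471 FPKM in saline (SD, n = 3 each), 10.5% higher in CFA. The log2 change was 0.14 (SE 0.0217, 95% interval 0.09 to 0.19, adjusted p = 0.00358, limma). It had the smallest adjusted p of the 5 genes tested but a change exceeded by 28.5% of all genes tested. Fragments numbered 11333 to 16595 per library. Ntrk2 encodes both full-length TrkB and a truncated form without the kinase domain, which astrocytes also make, and the single value per gene does not separate them.

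**Figure D2:**
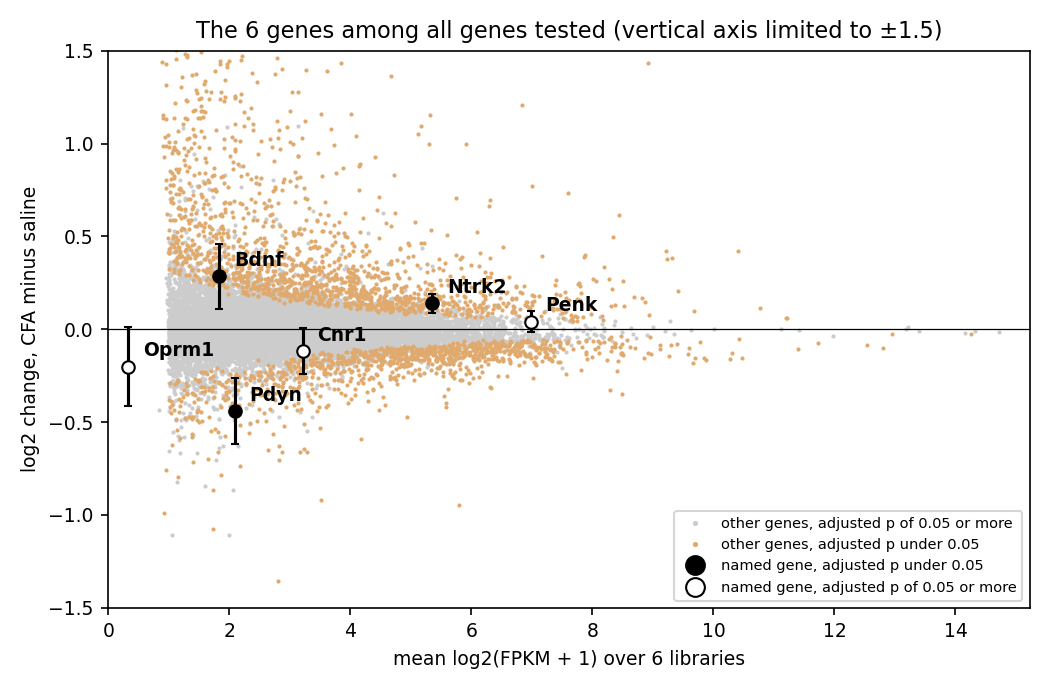
Log2 change, CFA minus saline, against mean log2(FPKM + 1) for all genes averaging 1 FPKM or more, with the 6 genes as large points with 95% intervals; Oprm1 lies below that mean and comes from the fit with genes of at least 0.1 FPKM, and some other genes with larger changes lie beyond the vertical axis. Pdyn at -0.44, Bdnf at 0.29 and Ntrk2 at 0.14 are filled (adjusted p under 0.05, limma), and the open points of Penk, Cnr1 and Oprm1 have intervals that include 0.

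FPKM is scaled by gene length, so levels of different genes can be set side by side within a library only as far as the lengths used are right. In mean FPKM the order was Penk, Ntrk2, Cnr1, then Pdyn and Bdnf, then Oprm1, in CFA as in saline, except that Pdyn and Bdnf changed places. All other neighbours in this order were separated in every library. The ratio of Bdnf to Pdyn was 1.11, 1.06 and 1.14 in CFA replicates 1, 2 and 3, against 0.708, 0.522 and 0.483 in saline replicates 1, 2 and 3. In FPKM, Bdnf was thus the higher of the pair in all 3 CFA libraries and the lower in all 3 saline libraries. Whether the ratio lies above or below 1 depends on the gene lengths used, which were not checked. The fold difference between groups does not depend on them where each gene has the same length in every library. The means were 1.11 ± 0.0405 in CFA and 0.571 ± 0.120 in saline (SD, n = 3 each). The exact two-sided permutation test gave p = 0.1, the smallest that 3 against 3 libraries allow. Bdnf was higher and Pdyn lower in every CFA library than in any saline library. The ratio therefore had to separate the groups, and its p-value adds nothing.

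The opioid precursors were also set against each other within each library. Pdyn stood at 0.0206, 0.0203 and 0.0216 of the Penk level in CFA replicates 1, 2 and 3, against 0.0282, 0.0344 and 0.0336 in saline replicates 1, 2 and 3. The ratio did not overlap between groups, and the exact two-sided permutation p of 0.1 is the smallest this design allows, so the difference could not pass a threshold of 0.05. Penk was 48.1 ± 1.62 times Pdyn in CFA and 31.4 ± 3.49 times in saline (SD, n = 3 each). Bdnf stood at 0.0720, 0.0650 and 0.0728 of the Ntrk2 level in CFA replicates 1, 2 and 3, against 0.0648, 0.0599 and 0.0517 in saline replicates 1, 2 and 3. Here CFA replicate 2 and saline replicate 1 nearly met, and the exact two-sided permutation p was again 0.1. Saline replicate 1 was the saline library nearest to CFA in all 3 ratios. Ratios share the values given above and add no separate evidence.

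**Figure D3:**
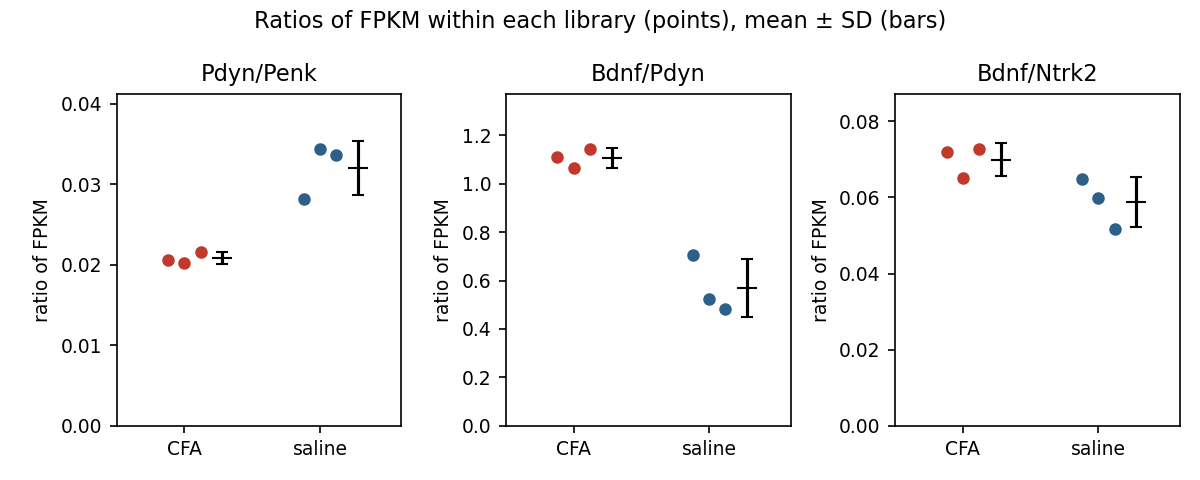
Ratios of FPKM within each library, with CFA on the left and saline on the right; points are libraries and bars are the mean ± SD over 3 libraries. Pdyn/Penk is lower in CFA, and Bdnf/Pdyn lies above 1 in CFA, from 1.06 to 1.14, and below 1 in saline, from 0.483 to 0.708.

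The course of each gene over the 6 libraries was compared with that of all other genes tested, by Pearson correlation of log2(FPKM + 1). The closest gene had a correlation of 0.992 for Penk, 0.997 for Pdyn, 0.992 for Cnr1, 0.992 for Bdnf and 0.999 for Ntrk2. With 6 libraries in 2 groups and 13566 genes, such values describe the table only, and 99 genes exceeded 0.99 with Ntrk2. None of the closest genes could be tied to a symbol. The other genes of these pathways and the markers of the RVM and of cell types were likewise not analysed here, so the tissue label was not checked against markers, and their part in the changes of Pdyn, Bdnf and Ntrk2 was not tested.

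**Figure D4:**
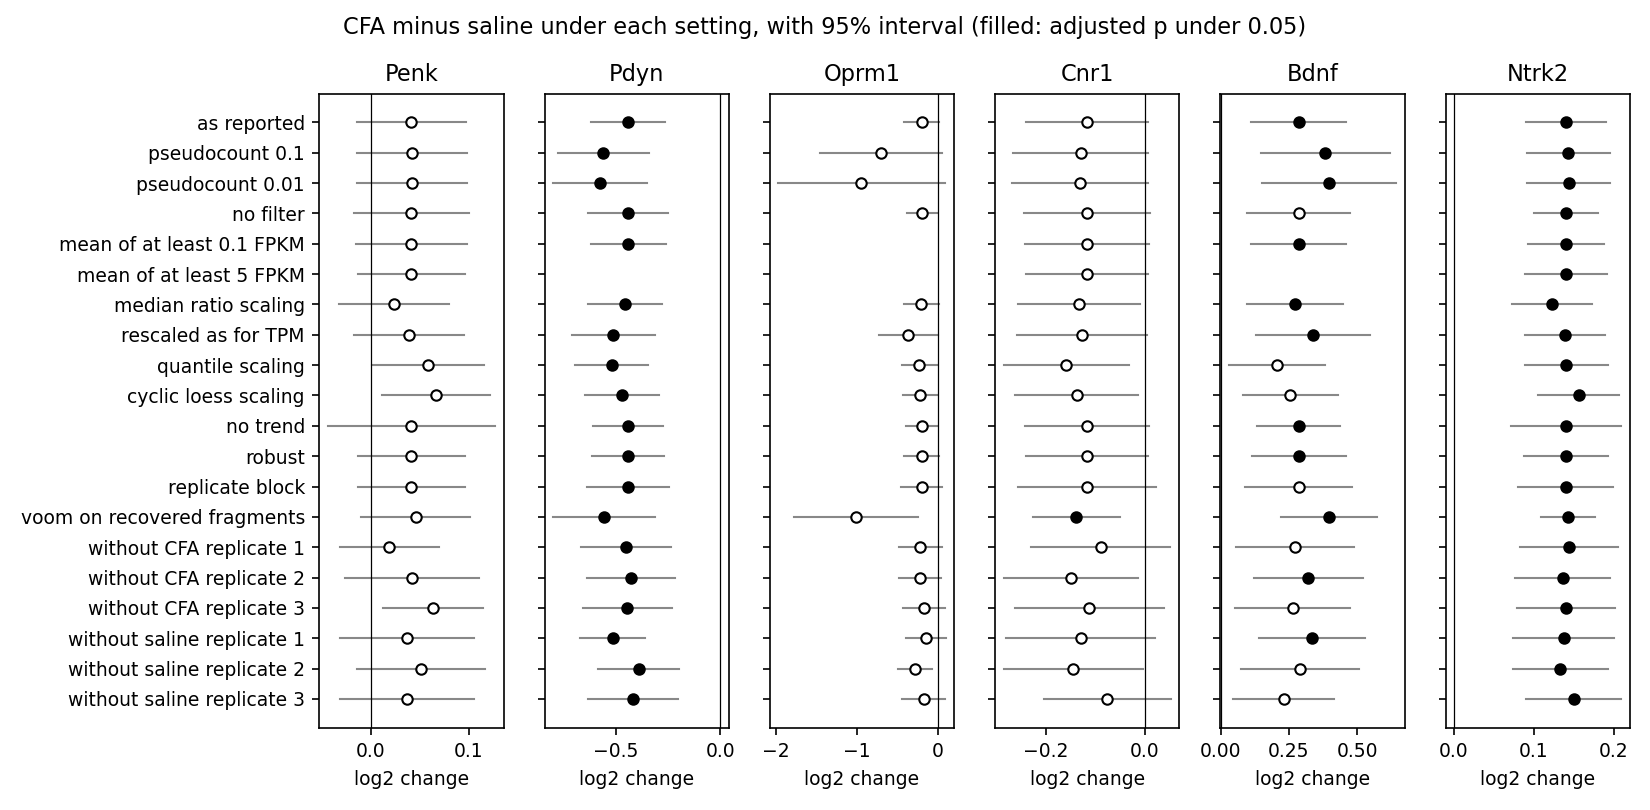
Log2 change, CFA minus saline, of each gene under each setting of the analysis, with 95% intervals; filled points have an adjusted p under 0.05 (limma) and the horizontal scale differs between panels. Pdyn and Ntrk2 are filled in every setting in which they were tested, Bdnf in only some, Cnr1 with voom alone, and Penk and Oprm1 in none.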

How the data were processed

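The values deposited by the authors are FPKM, in 1 column per library. Libraries were made from poly-A RNA with random hexamers and sequenced on a DNBSEQ-T7 as paired ends, per the labels' protocols. The tools named, without their roles, were DESeq2 1.30.1, StringTie 2, HISAT2 2 and fastp 0.21.0, and the build was mRatBN7.2, per the submitters' processing notes. For the counting of fragments and the annotation release, the protocols and notes name nothing further. Groups came from the sample titles.

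Genes averaging 1 FPKM or more were tested on log2(FPKM + 1), with a pseudocount of 1 FPKM, by limma 3.58.1 in R 4.3.3 (eBayes with a trend, two-sided, 3 against 3 libraries). P-values were adjusted by Benjamini-Hochberg over all genes tested. Oprm1, under that mean, came from the same fit with genes of at least 0.1 FPKM. Fragments were recovered from the steps of the FPKM values, whole within 0.0001 in 22968 of 22976 genes, up to a divisor shared with the gene's length. On simulated data, the recovery returned the fragments of 97.2% of genes. The fit was run on simulated fragments with a variance of 3 times counting noise. It called 72% of changes of 0.667-fold, 82% of 1.5-fold, 80% of 0.5-fold and 94% of 2-fold. The median folds it returned were 0.703, 1.433, 0.529 and 1.886 in that order. Of 13270 unchanged genes, 6 were called. Python 3.11.15 was used with scipy 1.17.1 for exact tests and matplotlib 3.10.9 for figures.

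The genes and lists were chosen with earlier results of these data known. The rule named these genes, list genes past the threshold, and the closest gene by correlation where it had a symbol. Since 0 identifiers matched the reference tables, 7 pathway lists and 12 marker lists were not analysed here. Alternatives covered pseudocount, filter, scaling, variance moderation, replicate block, voom and each library left out. No per-sample column was left unused.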

Additional observations from a re-analysis of the deposited data

How the results depend on the processing

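The count of 2545 genes past the adjusted threshold (limma) was 1758 to 3474 over 19 alternatives, and 1758 to 1997 with each library left out. Of the 5 genes tested, 3 passed, and 1 to 4 passed over the 19 alternatives. Only 1 passed with a mean of at least 5 FPKM, where Pdyn and Bdnf fell under the filter. With voom 4 passed, and with each library left out 2 to 3 passed. Pdyn kept its direction and call in 18 of 18 alternatives, with log2 changes of -0.57 to -0.39, and Ntrk2 in 19 of 19, at 0.12 to 0.16. Bdnf kept its direction in 18 of 18 and its call in 10. The call was lost at 0.21 with quantile and 0.25 with cyclic loess scaling. It was lost at 0.29 with no filter (adjusted p = 0.0748, limma). More genes were tested there, and the unadjusted p was also larger, at 0.00941 against 0.00564 (limma). The call was lost too in 4 of the 6 fits that left out a library, at 0.23 to 0.29, where all 6 spanned 0.23 to 0.33. The cause of these losses was not tested. Cnr1 (-0.16 to -0.08) passed at -0.14 with voom and in no other alternative. Penk (0.02 to 0.07) and Oprm1 (-1.01 to -0.15) passed in none.

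With the replicate number as a block, Bdnf had a change of 0.29 and an adjusted p of 0.0676 (limma), and 2086 genes passed. No other of the 6 genes changed its call. Across genes, the deviations of same-numbered libraries from their group means correlated at -0.0214 to 0.0229, so the numbers were not taken to pair libraries. Alternatives for the pathway lists were not run, since no list gene could be matched. Oprm1 had the fewest fragments of the 6 genes, at 15 to 76 per library, and its saline libraries varied by 6.31 times counting noise. What kept it from passing was not tested.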
